A study of Mus musculus with 6 samples.

Results

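The testis-specific serine kinases are a small family of protein kinases named for their restriction to male germ cells. The members described here are Tssk1, Tssk2, Tssk3, Tssk4 and Tssk6, 5 of the 32285 genes in the count matrices, and they were found by gene symbol, each on 1 row. Their unique molecular identifiers (UMIs, 1 for each captured RNA molecule) were summed over germ cell stages that were set with UMIs of other genes. Tssk5, a sixth gene of the family, was also listed and its values are given beside those of the members.

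The libraries were droplet single-cell RNA sequencing of whole testis from C57BL/6 male mice (C57BL/6N in the study's methods) that were 8 weeks old and had been fed for the last 2 weeks on a diet that was either high in fat (HFD) or low in fat (LFD). There were 3 libraries labelled HFD and 3 labelled LFD, and no other treatment or genetic change set the groups apart. Nothing in the labels says how many mice went into a library, but the study's methods give 3 mice per diet for this sequencing. The p-values measure the spread between libraries. Each diet group also held every other cell of the testis, and the stages below were taken from it by marker genes.

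In the mouse, spermatocytes complete meiosis and give round spermatids, which build the acrosome and then elongate while histones give way to transition proteins (Tnp1, Tnp2) and then to protamines (Prm1, Prm2). Transcription stops during elongation, and many spermatid mRNAs are stored and translated later. Tssk kinases phosphorylate spermatid proteins such as Tsks, their first known substrate, and the heat-shock protein HSP90 keeps several of these kinases active. Tsacc is a co-chaperone. Male mice that lack both Tssk1 and Tssk2, or Tssk6 alone, are infertile.

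Tssk1 and Tssk2 are neighbours on the plus strand of chromosome 16 (GRCm38, GENCODE M21). Tssk1 spans chr16:17894223-17897922 and Tssk2 spans chr16:17898637-17900024, with 714 bases between them, and both are single-exon genes. Tssk1 lies within the span of Dgcr2, which is read from the opposite strand at chr16:17839482-17898562. Tssk6 is also a single-exon gene, at chr8:69902184-69903518 on the plus strand. Tssk3 has 2 exons at chr4:129489014-129491022 on the minus strand, and Tssk4 has 3 to 4 exons among its 6 coding transcripts at chr14:55650184-55652539 on the plus strand. Of the 50-base stretches in its transcripts, Tssk2 shares 9.34% with Tssk1, and Tssk1 shares 3.42% with Tssk2, so reads from those stretches cannot be assigned to 1 of both genes. The other members share no such stretch with another gene.

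The stretches just before the start sites of Tssk1 and Tssk2 are shown because both genes rose together in round spermatids and lie side by side. They come from RefSeq (GRCm38.p6), end 1 base before the RefSeq start site and hold no annotated exon, and capitals mark TGACTTCA (or its reverse complement TGAAGTCA) and GACAGTGCTGA. Tssk1 is at chr16:17894146-17894202 and Tssk2 at chr16:17898563-17898636, both on the plus strand. Dgcr2 is read from the minus strand and starts at 17898562, so the Tssk2 stretch also lies just before the start of Dgcr2.
Tssk1: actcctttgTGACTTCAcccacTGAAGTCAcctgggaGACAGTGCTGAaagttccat
Tssk2: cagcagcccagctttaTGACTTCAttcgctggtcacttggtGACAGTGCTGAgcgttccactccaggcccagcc

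The motifs were picked after the sequences had been read. On either strand, GACAGTGCTGA, the longest run shared by both stretches, was found in 6 of the 32817 promoter windows of 300 bases (0.0183%). Tssk1 and Tssk2 are among these 6 by the way the run was chosen. TGACTTCA was found in 1.52% of the windows, and of the members' windows it was in those of Tssk1 and Tssk2. The cyclic AMP response element TGACGTCA was in 1.79% of all windows and in none of the 5 members' windows, and its part TGACG, which lies within it, was in 20.8% of all windows and in that of Tssk6. TATAAA was in 13.6% of all windows and in none of the members' windows. The windows before Tssk3 and Tssk6 overlap annotated exons and are not printed.

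Several facts of the libraries bear on every comparison. The 6 libraries held 48939 barcodes, from 5753 to 11095 each, and 39196921 to 95845514 UMIs each, and 284 barcode sequences occurred in more than 1 library. The names of the deposited files give the opposite diet to the labels for all 6 libraries. The study's own list of cell numbers also matches the libraries by file name and not by label. The groups here follow the labels, and every diet difference printed below changes sign if the file names are right. The replicate 1 libraries of both diets stood apart, with haemoglobin at 0 and 0.0209 UMIs per 1000000 UMIs of the library (CPM) where the other 4 libraries had 30.5 to 99.7 CPM, and with 6.86% and 7.09% of their barcodes in elongating spermatids where the others had 1.22% to 2.62%. In the 6 stages, the deviations of HFD replicates 2 and 3 from the stage mean fell with the GC content of the gene (Spearman's rho from -0.44 to -0.62 across genes). Those of HFD replicate 1 and of the LFD libraries had rho from -0.04 to 0.54.

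The stages were set by marker UMIs per 10000 UMIs of a barcode. Late spermatocytes (650 barcodes) had cell division genes such as Ccna1 and few acrosome genes. Early round spermatids (1411) had 20 or more of acrosome genes such as Acrv1 and 1 or more of Ssxb genes, later round spermatids (1424) had 50 or more acrosome UMIs and less than 1 of Ssxb, and spermatids starting elongation (494) had 40 or more acrosome UMIs and Tnp2 at 30 to 250. Elongating spermatids (1782) had Tnp2 at 250 or more, and condensing spermatids (946) had Prm2 at 600 or more with Tnp2 below 100. Genes that set no gate followed the same order, as Tnp1 had a median of 11.0 UMIs per 10000 in later round, 80.5 in starting, 342 in elongating and 14.4 in condensing spermatids. HFD replicate 2 had 16 condensing spermatids, fewer than the 20 asked for, and was left out of that stage in the means and tests over libraries, while shares of barcodes with a UMI were taken over all 946 barcodes.

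All members were also seen in barcodes gated by genes of somatic cells. Free RNA in the droplets and a somatic cell caught with a spermatid were not told apart, and no doublets were removed. Pooled over libraries, barcodes gated by Sertoli cell genes held 181 CPM of Tssk1 (95% Poisson interval 167 to 196, counting error only), 421 of Tssk2, 224 of Tssk3, 43.8 of Tssk4 and 589 of Tssk6. Barcodes gated by macrophage genes held 110.0 CPM of Tssk1, 245 of Tssk2, 121 of Tssk3, 22.2 of Tssk4 and 268 of Tssk6. Between the 5 libraries with 20 or more Sertoli barcodes, that gate's Tssk1 ranged from 109 to 412 CPM and its Tssk6 from 157 to 918. Set against Prm1, an abundant spermatid mRNA, Tssk6 stood at 35.1 to 50.1 UMIs per 1000 Prm1 UMIs in the macrophage, stromal and Sertoli gates. Values at or below these levels are read as background. In turn, somatic markers were low in the stages: condensing spermatids held 11.6 to 199.6 CPM of all Sertoli markers together and 32.2 to 97.7 CPM of all macrophage markers over all 6 libraries, the 16 barcodes of HFD replicate 2 included, and their part in the Tssk values was not tested.

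The 5 members reached their highest CPM in different stages. Tssk4 was highest in later round spermatids, Tssk1 in spermatids starting elongation, Tssk2 in elongating spermatids, and Tssk3 and Tssk6 in condensing spermatids. The levels below are CPM of the stage's summed UMIs, as mean ± SD over 6 libraries (5 in condensing spermatids). Because the UMIs count molecules by their 3′ ends, the CPM does not grow with transcript length. The plot of CPM by stage shows each library.

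**Figure D1:**
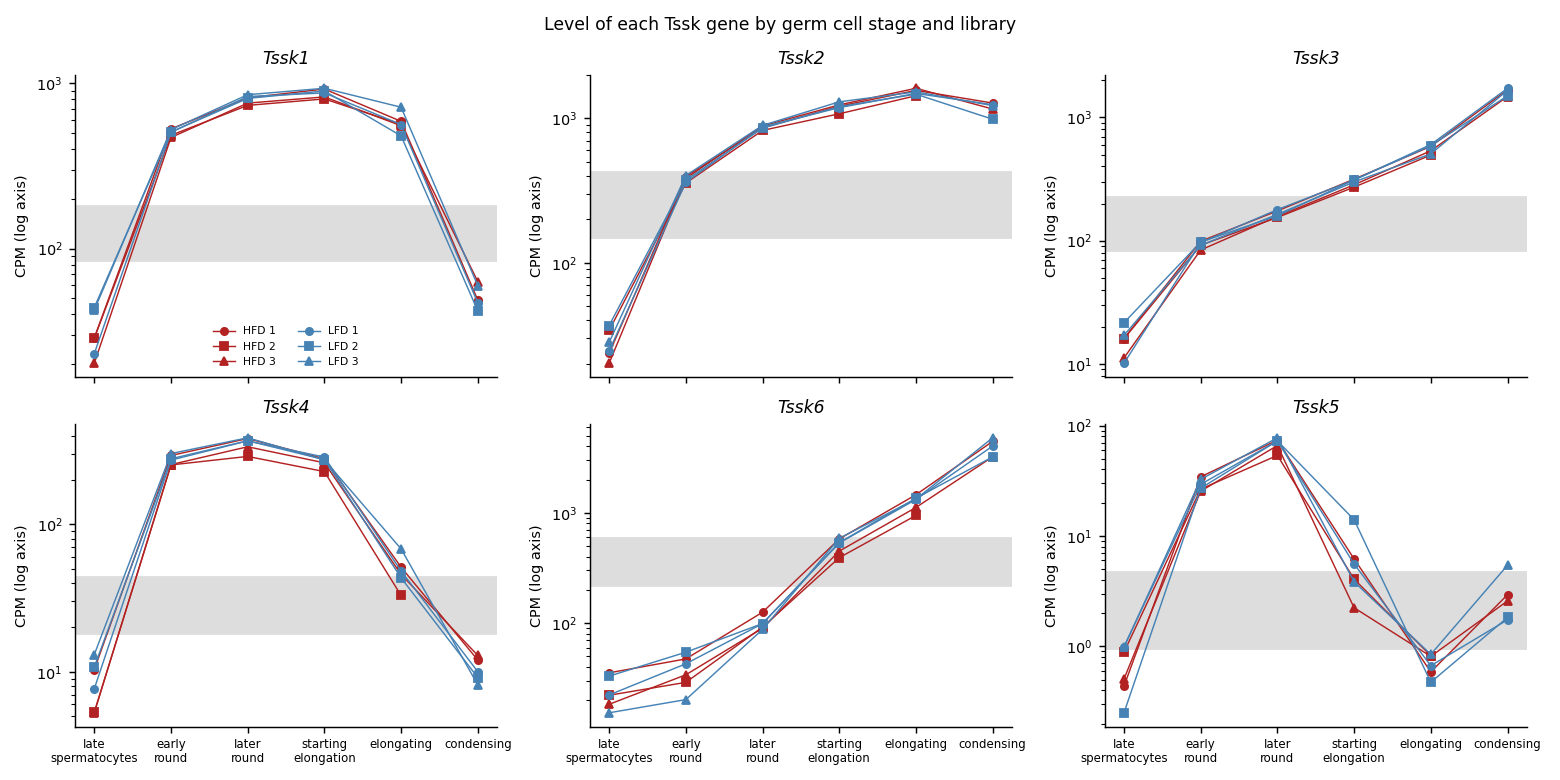
CPM (log axis) of each Tssk gene in 6 germ cell stages, 1 line for each library (red, labelled HFD; blue, labelled LFD; circle, square and triangle, replicates 1, 2 and 3). The grey band spans the pooled CPM of the gene in the Sertoli, macrophage and stromal gates. Tssk1 and Tssk4 fall into or below the band in condensing spermatids while Tssk3 and Tssk6 reach 1609 and 3940.3 CPM.

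Tssk1 was the most abundant member in early round spermatids. In late spermatocytes it stood at 31.3 ± 9.89 CPM, below the level of the Sertoli and macrophage gates, although its 35.8 UMIs per 1000 Prm1 UMIs exceeded the 14.4 to 18.1 of the somatic gates, spermatogonia and pachytene spermatocytes. Early round spermatids held 529.6, 484 and 470.0 CPM in HFD replicates 1 to 3 and 505, 508 and 524 CPM in LFD replicates 1 to 3. Every early round value lay above every late spermatocyte value, and the edgeR quasi-likelihood test gave a log2 change of 4.23 ± 0.10 (SE, Benjamini-Hochberg adjusted p = 2.65e-15). The level rose further to 800.3 ± 44.8 CPM in later round spermatids (log2 change 0.94 ± 0.02, edgeR adjusted p = 4.08e-28). It reached 876 ± 52.0 CPM in spermatids starting elongation, the highest stage in 6 of 6 libraries (log2 change 0.51 ± 0.02, edgeR adjusted p = 5.31e-17).

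Elongating spermatids had 588, 565 and 553 CPM of Tssk1 in the libraries labelled HFD and 563, 481 and 716 in those labelled LFD. All 6 values lay below those of spermatids starting elongation. The call depended on the scaling, since edgeR with TMM scaling, which centres the bulk of genes, gave a log2 change of 0.04 ± 0.05 (adjusted p = 0.506) and plain CPM scaling, added after the data had been seen, gave -0.61 (edgeR adjusted p = 1.21e-08). Condensing spermatids had 52.2 ± 8.93 CPM, a log2 change of -3.35 ± 0.11 from elongating spermatids (edgeR adjusted p = 1.06e-32). That level lies below the macrophage gate and is read as background.

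Tssk4, a kinase known to act on the outer dense fibre protein Odf2 of the sperm tail, was above the Sertoli gate in early round, later round and starting spermatids. Late spermatocytes held 8.74 ± 3.17 CPM, below the background gates. The 10.1 Tssk4 UMIs per 1000 Prm1 UMIs there exceeded the 2.91 to 4.62 of the somatic gates, spermatogonia and pachytene spermatocytes. Early round spermatids held 293, 253 and 254 CPM in the libraries labelled HFD and 272, 278 and 302 in those labelled LFD, with no overlap with the earlier stage. The log2 change of 5.20 ± 0.10 (edgeR adjusted p = 6.36e-16) was the largest of the members.

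Tssk4 peaked at 355 ± 36.9 CPM in later round spermatids, in 6 of 6 libraries, with a log2 change of 0.63 ± 0.03 from early round spermatids (edgeR adjusted p = 2.99e-20). Spermatids starting elongation held 267 ± 20.7 CPM, where TMM scaling made no call (log2 change -0.02 ± 0.03, edgeR adjusted p = 0.506) and plain CPM scaling did (-0.41, edgeR adjusted p = 4.79e-13). Elongating spermatids held 51.1, 32.9 and 45.7 CPM in the libraries labelled HFD and 48.2, 43.3 and 68.1 in those labelled LFD, all far below the stage before (log2 change -1.83 ± 0.07, edgeR adjusted p = 4.42e-16). These values lay on both sides of the Sertoli gate's 43.8 CPM, so on CPM the stage is not clear of background. In condensing spermatids 10.4 ± 1.98 CPM remained, again under the background gates (log2 change -2.02 ± 0.16, edgeR adjusted p = 2.68e-16).

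Tssk2 rose with Tssk1 and fell later. Its level went from 27.9 ± 6.42 CPM in late spermatocytes, a background level, to 378 ± 18.3 CPM in early round spermatids (log2 change 3.93 ± 0.09, edgeR adjusted p = 3.80e-15). All 6 early round values lay below the Sertoli gate's 421 CPM, though Tssk2 reached 335 UMIs per 1000 Prm1 UMIs in early round spermatids against 28.3 to 36.1 in the somatic gates, spermatogonia and pachytene spermatocytes. Later round spermatids held 863 ± 24.6 CPM and spermatids starting elongation 1200.0 ± 74.0 CPM (log2 changes 1.46 ± 0.02 and 0.86 ± 0.02, edgeR adjusted p = 9.42e-33 and 1.27e-21). Elongating spermatids were highest in 6 of 6 libraries, with 1557, 1429 and 1609.8 CPM in the libraries labelled HFD and 1483, 1466 and 1520.1 in those labelled LFD (log2 change 0.98 ± 0.05, edgeR adjusted p = 2.68e-14). Their mean was 1511 ± 65.6 CPM, and libraries of both diets were mixed in their order.

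Condensing spermatids held 1272 and 1157 CPM of Tssk2 in HFD replicates 1 and 3 and 1239.7, 983 and 1222 in the libraries labelled LFD, all below the elongating values. The log2 change was -0.24 ± 0.08 (edgeR adjusted p = 0.00691). This call rested on LFD replicate 2, the lowest library, because without it the change was -0.08 (edgeR adjusted p = 0.183).

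Tssk3 rose at every step. Late spermatocytes held 15.3 ± 4.17 CPM and early round spermatids 93.3 ± 5.49 CPM, both within or below the background gates, though Tssk3 reached 82.9 UMIs per 1000 Prm1 UMIs in early round spermatids against 14.8 to 19.1 in the gates and the cells before. The level was 164 ± 9.84 CPM in later round spermatids, below the Sertoli gate's 224 and above the macrophage gate's 121. Tssk3 stood there at 120.9 UMIs per 1000 Prm1 UMIs. Spermatids starting elongation held 299 ± 17.5 CPM and elongating spermatids 552 ± 45.7. The 4 log2 changes were 2.80 ± 0.10, 1.09 ± 0.03, 1.24 ± 0.03 and 1.54 ± 0.05 (edgeR adjusted p = 3.93e-13, 4.97e-24, 2.67e-22 and 8.56e-17). Condensing spermatids held 1679 and 1479 CPM in HFD replicates 1 and 3 and 1727, 1501 and 1662 in the libraries labelled LFD, each more than any elongating value (log2 change 1.65 ± 0.08, edgeR adjusted p = 1.87e-24).

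Tssk6, which mature sperm need for fusion with the egg, was the latest. Its 24.4 ± 8.04 CPM in late spermatocytes and 38.0 ± 12.6 CPM in early round spermatids lay far under the somatic gates, and its ratio to Prm1 in these stages (30.8 and 34.5 per 1000) was no higher than in them. From spermatids starting elongation on, Prm1 is itself abundant, so the ratio is used for earlier stages. The change between these stages passed the test (log2 change 0.78 ± 0.09, edgeR adjusted p = 5.96e-07) and is one between background levels. Later round spermatids held 98.8 ± 13.9 CPM, still below the gates, but with 72.7 UMIs per 1000 Prm1 UMIs (log2 change 1.66 ± 0.07, edgeR adjusted p = 1.00e-19). Spermatids starting elongation held 579, 392 and 449 CPM in the libraries labelled HFD and 533, 537 and 587 in those labelled LFD, all above the later round values (log2 change 2.75 ± 0.05, edgeR adjusted p = 1.13e-25). All 6 values lay below the Sertoli gate's pooled 589 CPM and above the macrophage gate's 268, so on CPM this stage is not clear of background. In UMIs per barcode the stage held 24.2 ± 2.11 of Tssk6, from 20.6 to 26.9 over libraries. The Sertoli gate held 2.95 ± 1.61, from 0.878 to 5.12, and the macrophage gate 0.930 ± 0.221. The Sertoli gate's Tssk6 varied widely, at 450 ± 312 CPM over 5 libraries, from 157 to 918. Its barcodes held a median of 1951 UMIs and those of spermatids starting elongation 41847.5. At an equal depth of 3000 UMIs, 76.3% of barcodes of spermatids starting elongation and 55.4% of the Sertoli gate's held the gene. The Sertoli share covers only the 157 of 590 barcodes that had 3000 UMIs or more. The step was the largest of any member at this point.

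Elongating spermatids held 1459, 947 and 1118 CPM of Tssk6 in the libraries labelled HFD and 1322, 1356 and 1333 in those labelled LFD (log2 change 1.94 ± 0.05, edgeR adjusted p = 6.90e-19). Condensing spermatids held 4445 and 3221 CPM in HFD replicates 1 and 3 and 4032, 3217 and 4787 in the libraries labelled LFD (log2 change 1.70 ± 0.09, edgeR adjusted p = 2.04e-24). Every condensing value exceeded every elongating value. Tssk5 was highest in round spermatids, at 29.2 ± 3.56 CPM in early and 69.3 ± 8.53 in later round spermatids, then 5.99 ± 4.18 in spermatids starting elongation (log2 change -3.20 ± 0.14, edgeR adjusted p = 1.80e-17) and 0.702 ± 0.151 in elongating spermatids.

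Changes between stages were the rule over all genes, so the members' counts need that background. From late spermatocytes to early round spermatids all 5 members rose, where 40.9% of the 12229 tested genes rose and 43% fell, and the members' median log2 change was 3.93 beside -0.05 over all genes. The rise of Tssk6 counted here lay between background levels. From early to later round spermatids all 5 rose, beside 38.4% of genes rising and 37.9% falling. From later round spermatids to those starting elongation 4 members rose and none fell, beside 35.5% of genes rising and 35.3% falling. From there to elongating spermatids 3 members rose and 1 fell, beside 37.6% rising and 40.7% falling. From elongating to condensing spermatids 2 members rose and 3 fell, beside 34% rising and 39.4% falling.

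These counts depended on the scaling. Under plain CPM scaling the median of all genes moved to -0.19, -0.29, -0.42, -0.68 and -0.20 on the log2 scale in the 5 steps. The share of calls that were rises fell from 50.3% to 35%, from 50.1% to 29.6% and from 48% to 19% in the 3 steps from early round to elongating spermatids. Every member change called under TMM kept its direction under plain CPM scaling. Tssk4 from later round spermatids to those starting elongation and Tssk1 from there to elongating spermatids were called on plain CPM but not under TMM. For Tssk1 the sign also differed between the scalings.

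UMIs per barcode, an additional measure chosen after the data had been seen, set the CPM beside the total RNA caught from a cell. Barcodes of spermatids starting elongation held a median of 41847.5 UMIs, those of elongating spermatids 17182.5 and those of condensing spermatids 7176. The gates asked for 10000 UMIs per barcode in spermatids starting elongation and for 3000 in the later stages, so part of the difference in UMIs per barcode is set by the gates. Fewer molecules in the cell and poorer capture cannot be told apart here. On this scale Tssk2 was highest in spermatids starting elongation in 6 of 6 libraries, at 57.1 ± 5.31 UMIs per barcode, and held 32.2 ± 2.92 in elongating and 10.1 ± 1.06 in condensing spermatids. The mean log2 change from starting to elongating was -0.82 ± 0.20 (SD), negative in 6 of 6 libraries (two-sided exact sign-flip test, p = 0.03125, the smallest that 6 libraries allow).

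For Tssk6 and Tssk3 the UMIs per barcode differed less between the last 3 stages than the totals did. Tssk6 held 24.2 ± 2.11 UMIs per barcode in spermatids starting elongation, 26.7 ± 4.25 in elongating and 33.8 ± 5.05 in condensing spermatids. The first of these steps did not pass (mean log2 change 0.13 ± 0.20 SD, exact sign-flip p = 0.219), and the second was positive in 5 of 5 libraries (0.31 ± 0.20 SD, exact sign-flip p = 0.0625, the smallest that 5 libraries allow). Tssk3 held 14.2 ± 1.58, 11.8 ± 1.33 and 13.9 ± 1.28 UMIs per barcode in the same stages, lower in elongating spermatids in 6 of 6 libraries (exact sign-flip p = 0.03125). From elongating to condensing spermatids the CPM of Tssk6 and Tssk3 rose by log2 changes of 1.70 and 1.65, where the mean log2 differences in UMIs per barcode were 0.31 and 0.25, the latter positive in 4 of 5 libraries (exact sign-flip p = 0.125).

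Tssk1 and Tssk4 had fewer UMIs per barcode in each of the last 2 stages. Tssk1 went from 41.7 ± 4.54 UMIs per barcode in spermatids starting elongation to 12.4 ± 2.25 in elongating and 0.451 ± 0.088 in condensing spermatids. Tssk4 went from 12.7 ± 0.999 to 1.03 ± 0.247 and 0.0902 ± 0.0183. Each of the first steps was negative in 6 of 6 libraries (exact sign-flip p = 0.03125), and 30 such tests were made over 6 genes and 5 steps. After Benjamini-Hochberg adjustment over the 30, the 22 tests with p = 0.03125 had an adjusted p of 0.0426 in this permutation test.

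**Figure D2:**
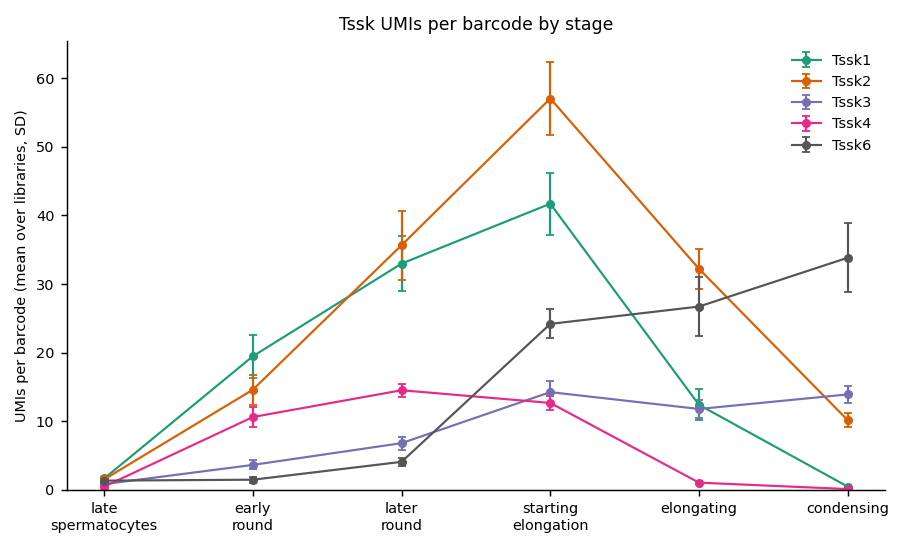
UMIs per barcode of each member by stage, mean over libraries with SD bars. Tssk2 rises to 57.1 in spermatids starting elongation and drops to 10.1 in condensing spermatids, while Tssk6 stays between 24.2 and 33.8 over the last 3 stages.

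A split of the elongating spermatids by acrosome markers, added after the data had been seen, set Tssk1 beside Tssk4 along falling marker levels. Elongating spermatids that still had 15 or more acrosome UMIs per 10000 (234 barcodes, 4 libraries with enough of them) held 831 ± 27.2 CPM of Tssk1 and 134 ± 3.65 of Tssk4. Those with 5 to 15 (832 barcodes) held 755 ± 60.5 CPM of Tssk1 but 38.9 ± 6.79 of Tssk4. Those under 5 (716 barcodes) held 197 ± 78.4 of Tssk1 and 12.3 ± 3.09 of Tssk4. In the same 3 bins Tssk6 stood at 934 ± 90.2, 1263 ± 178 and 1492 ± 262 CPM, and Tssk2 at 1287 ± 56.2, 1682 ± 67.1 and 1405 ± 164 CPM. In the same order the barcodes held medians of 35765.5, 14981 and 17034.5 UMIs. Doublets of an earlier and a later spermatid were not removed and could fall in the first bin. The bins are a description of ordered marker levels and were not tested.

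The make-up of the family differed between round and condensing spermatids. Of all UMIs of the 5 members in early round spermatids, Tssk1 took 39.1% ± 0.565 (SD, n = 6), Tssk2 29.4% ± 1.13, Tssk4 21.4% ± 0.653, Tssk3 7.24% ± 0.331 and Tssk6 2.94% ± 0.927. In elongating spermatids Tssk2 led with 38.4% ± 2.35, followed by Tssk6 with 31.7% ± 2.96, and Tssk1 and Tssk3 had 14.7% ± 1.83 and 14.0% ± 1.03. In condensing spermatids Tssk6 took 57.8% ± 3.00 (SD, n = 5), Tssk3 23.9% ± 1.87 and Tssk2 17.4% ± 1.35, while Tssk1 and Tssk4 had 0.778% ± 0.168 and 0.157% ± 0.0405. A share within a stage does not depend on the library total, and the order of Tssk1 and Tssk3 in elongating spermatids is within their spread. The CPM of Tssk6 in early round and of Tssk1 and Tssk4 in condensing spermatids was at background.

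Between later round and elongating spermatids the share of Tssk6 was higher by 27.4 percentage points ± 2.81 (SD) and that of Tssk3 by 6.81 ± 0.912, in 6 of 6 libraries each. The differences for Tssk1 and Tssk4 were -20.4 ± 1.74 and -14.3 ± 0.821 points, negative in all 6. The two-sided exact sign-flip test gave p = 0.03125 for each of these 4, the smallest that 6 libraries allow. The share of Tssk2 differed by 0.534 ± 1.11 points (exact sign-flip p = 0.375). From elongating to condensing spermatids the difference was 25.2 ± 2.96 points for Tssk6 and -20.4 ± 1.12 for Tssk2, with the same sign in 5 of 5 libraries, where p cannot go below 0.0625 in an exact test. Of the 15 share differences computed over 3 steps, 13 had 1 sign in every library, and after Benjamini-Hochberg adjustment over the 15 the smallest p was 0.0586, so that none passed 0.05.

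**Figure D3:**
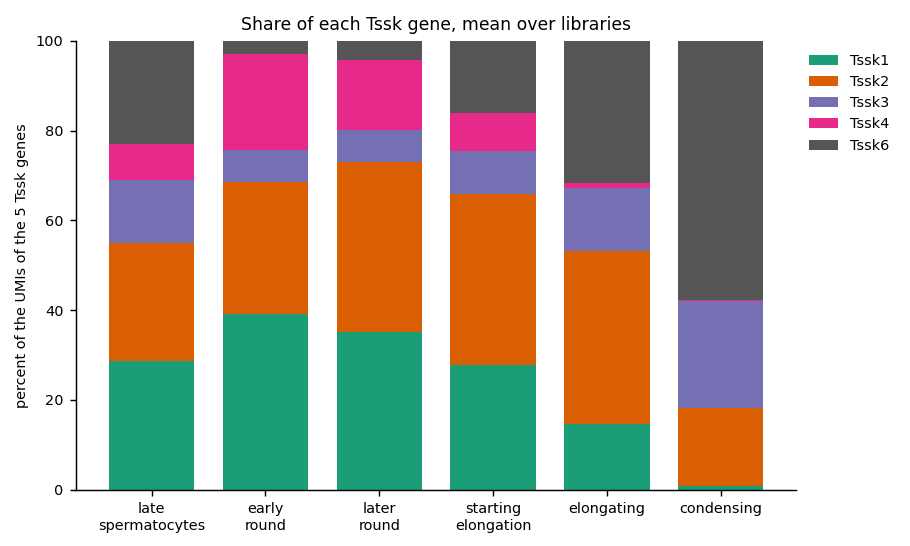
Share of each member in the UMIs of all 5 by stage, mean over libraries, stacked to 100%. Tssk1 goes from 39.1% in early round to under 1% in condensing spermatids and Tssk6 from 2.94% to 57.8%. The late spermatocyte bar rests on levels whose CPM lay below the somatic gates. So do the Tssk6 share in early round and the Tssk1 and Tssk4 shares in condensing spermatids.

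The ratio of the neighbouring genes was higher in each stage than in the one before from early round spermatids on. In late spermatocytes, where the CPM of both genes lay below the somatic gates, the ratio was 0.926 ± 0.19. There were 0.751 ± 0.0355 Tssk2 UMIs for each Tssk1 UMI in early round spermatids (SD, n = 6), 1.08 ± 0.0505 in later round, 1.37 ± 0.0667 in starting and 2.65 ± 0.323 in elongating spermatids. The ranges of these 4 stages over the libraries did not overlap. In condensing spermatids the ratio was 22.9 ± 3.51, on Tssk1 counts at background.

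Of the genes beside them, Dgcr2 and Ess2 were called higher at the first 3 steps, as Tssk1 and Tssk2 were, and Gsc2 was not. Dgcr2, which overlaps Tssk1 on the other strand, went from 4.53 ± 1.33 CPM in late spermatocytes to 107 ± 9.17 in spermatids starting elongation, and rose at the first 3 steps (log2 changes 2.46 ± 0.13, 1.59 ± 0.06 and 1.35 ± 0.05, edgeR adjusted p = 5.88e-11, 5.52e-21 and 7.71e-19). Ess2, on the far side of Tssk2, rose at the same steps by 1.24 ± 0.08, 0.33 ± 0.05 and 0.25 ± 0.07 (edgeR adjusted p = 6.27e-10, 1.68e-06 and 0.00208). At the last of these its CPM was lower, 38.2 and then 34.5, so that direction depends on the scaling. Gsc2 passed the test at the last step alone, with a log2 change of -1.14 ± 0.32 (edgeR adjusted p = 0.00171) at 5.89 and 2.45 CPM.

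Counted cell by cell at an equal depth, spermatids held several members on average. After each barcode was thinned to 3000 UMIs, early round spermatids held UMIs of 2.36 of the 5 members on average and later round spermatids 3.03. Spermatids starting elongation held 3.84, elongating spermatids 3.50 and condensing spermatids 3.15, against 1.59 in the macrophage gate and 1.74 in the Sertoli gate. Only barcodes with 3000 UMIs or more could be thinned. These were 173 of 249 in the macrophage gate and 157 of 590 in the Sertoli gate. Tssk6 was seen in 11.5% of early round spermatids, 76.3% of those starting elongation (60.7% to 83.6% over libraries), 97.6% of elongating and 100% of condensing spermatids. The macrophage gate had it in 49.1% and the Sertoli gate in 55.4%. Over 3 libraries the Sertoli gate ranged from 40.6% to 71.7%, which overlaps the range of spermatids starting elongation. Tssk1 was seen in 89.3% of later round but 16.0% of condensing spermatids, and Tssk4 in 63.9% and 3.59%, where the macrophage gate had 25.4% and 6.36%. Unthinned, the macrophage gate (median 3415 UMIs) had Tssk6 in 59.8% of its barcodes and condensing spermatids (median 7176) in 100%.

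Of the 9 partner genes fixed for comparison, 5 rose and 3 fell from late spermatocytes to early round spermatids, 5 rose and 3 fell at the second step, 5 rose and 4 fell at the third, 6 rose and 1 fell at the fourth, and 4 rose and 2 fell at the last. Tsks, the substrate, had 19.3 ± 5.32, 171 ± 17.1, 386 ± 39.7, 648 ± 84.2, 919 ± 80.8 and 962 ± 53.1 CPM over the 6 stages. It rose at the first 4 steps (log2 changes 3.30 ± 0.09, 1.45 ± 0.02, 1.13 ± 0.03 and 1.16 ± 0.05) and not at the last (0.17 ± 0.08, edgeR adjusted p = 0.0561). Tsacc, the co-chaperone, was already at 557 ± 48.5 CPM in late spermatocytes and reached 1466 ± 112 in elongating spermatids (log2 change 1.60 ± 0.05 from the stage before). Odf2 went from 1298 ± 138 to 7147 ± 266 CPM and rose at all 5 steps. In UMIs per barcode Odf2 held 69.8, 54.9, 69.6, 100.1, 74.0 and 61.7 over the 6 stages. On that scale Tsks held 30.6 in starting, 19.6 in elongating and 8.29 in condensing spermatids, and Tsacc 36.4, 31.4 and 10.2.

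The other partners went their own ways. Pdpk1, a kinase that activates many others, was at 24.4 ± 3.38 CPM in early round, 273 ± 23.8 in elongating and 22.1 ± 4.64 in condensing spermatids (last log2 change -3.44 ± 0.12, edgeR adjusted p = 6.27e-31). Hsp90aa1, a heat-shock protein gene, fell from 4096 ± 452 CPM in late spermatocytes to 336 ± 95.9 in elongating spermatids, with a call at each of these 4 steps, and rose at the last one (0.71 ± 0.09). At that last step its UMIs per barcode went from 7.09 to 4.15. Ppp1cc, a phosphatase subunit, went from 1295 ± 129 to 149 ± 31.9 CPM over the 6 stages. Under TMM scaling it was called higher at the first step (0.08 ± 0.03), where its CPM was lower, and its largest change was at the last step (-1.49 ± 0.09). Ppp1r11, a phosphatase inhibitor, rose at all 5 steps to 2891 ± 229.7 CPM.

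Other kinases of germ cells moved both ways. Of the 30 on the list, 2 set a gate and were left out, and of the 28 left 9 rose and 12 fell at the first step, 9 and 15 at the second, 8 and 13 at the third, 7 and 7 at the fourth and 11 and 8 at the last, among 23 to 25 tested. Csnk1g2, a casein kinase, rose at all 5 steps from 24.5 ± 6.04 to 1862 ± 178 CPM. Its UMIs per barcode were 16.7 in starting, 14.1 in elongating and 16.0 in condensing spermatids. Dyrk4 had the largest changes in the later steps, with 11.6 ± 1.54 CPM in later round, 105 ± 6.93 in starting and 25.5 ± 10.5 in elongating spermatids (log2 changes 3.57 ± 0.08, then -1.45 ± 0.10, then -4.37 ± 0.34). Camk4, the calmodulin kinase of spermatids, rose from 17.6 ± 1.19 CPM in early round to 119 ± 11.5 in later round spermatids (3.03 ± 0.05). Mak, a kinase of the sperm tail and cilia, fell by 2.61 on the log2 scale at the last step, from 59.2 ± 6.38 CPM, and Hipk4 was highest in early round spermatids at 166 ± 23.2 CPM.

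**Figure D4:**
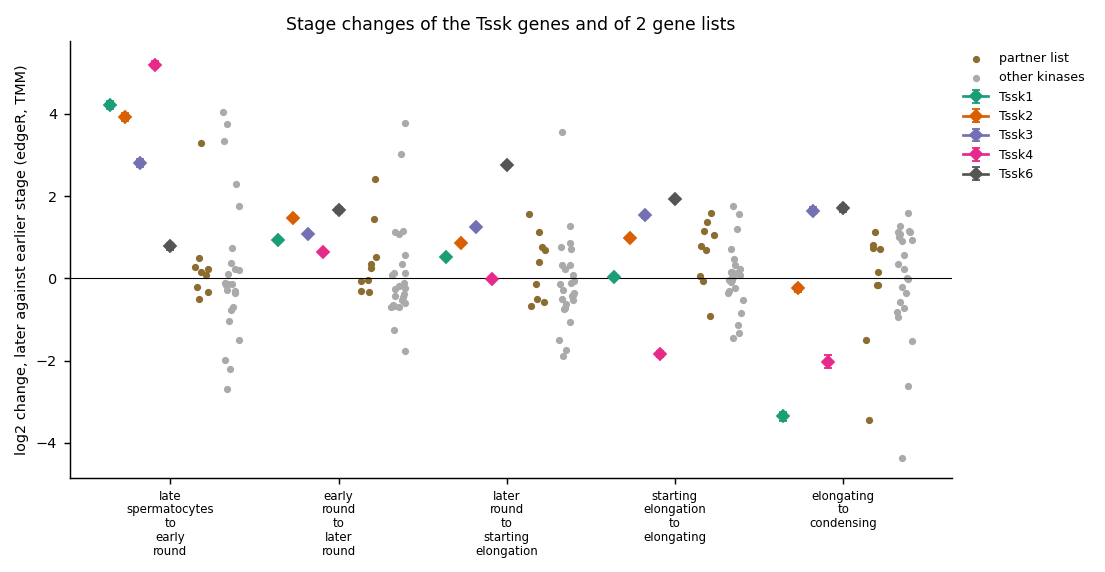
Log2 change between neighbouring stages (edgeR, TMM scaling) for the members (diamonds, SE bars, most smaller than the symbol), the 9 partner genes (brown) and the other kinases tested (grey). In the first 3 steps the members lie above 0, except Tssk4 at -0.02 in the step to starting elongation, and they split in the last 2, where Tssk3 and Tssk6 stay above 1.5 and Tssk4 falls below -1.8.

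With all libraries in the fit, no member was called between libraries labelled HFD and LFD in any stage, and without HFD replicate 1 there were 3 such calls, given below. The edgeR test called 0 of 11038 genes in late spermatocytes (0%), 0 of 12337 in early round (0%), 0 of 12731 in later round (0%), 0 of 9972 in starting (0%), 0 of 9103 in elongating (0%) and 0 of 4404 in condensing spermatids (0%), and 0 of 20727 in the whole testis (0%). At an unadjusted p under 0.05 there were 677, 692, 737, 466, 124, 54 and 471 genes, none of them a member, and DESeq2 called 0 in each of the 7. The largest member differences (HFD minus LFD) were -0.55 ± 0.30 for Tssk4 and -0.47 ± 0.22 for Tssk1 on the log2 scale (edgeR adjusted p = 0.683 for both). Both were in late spermatocytes, where the CPM of these genes lay below the somatic gates. From early round to elongating spermatids the 20 member differences lay between -0.27 and 0.09.

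In later round spermatids the diet differences of Tssk1, Tssk2 and Tssk3 were not called. Tssk2 was at 857, 823 and 884 CPM in the libraries labelled HFD and 869, 853 and 891 in those labelled LFD. These values overlap (log2 difference -0.05 ± 0.09, edgeR adjusted p = 0.894). Tssk3 differed by -0.06 ± 0.10 and Tssk1 by -0.13 ± 0.09 in the same stage (edgeR adjusted p = 0.868 and 0.720). In elongating spermatids the SE of a member difference was 0.15 to 0.21, and in condensing spermatids, with 2 libraries labelled HFD, 0.25 to 0.27. Tssk4 was too low there to be tested.

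Tssk4 and Tssk6 showed the widest spread among libraries labelled HFD. Tssk4 in later round spermatids was at 382, 288 and 335 CPM in HFD replicates 1 to 3 and at 368, 369 and 386 in the libraries labelled LFD, a log2 difference of -0.17 ± 0.11 (edgeR adjusted p = 0.706). Tssk6 in spermatids starting elongation differed by -0.24 ± 0.13 (edgeR adjusted p = 0.81), with HFD replicates 2 and 3 below and HFD replicate 1 among the LFD values. The transcript of Tssk6 has 64.8% GC, above 99.4% of the expressed genes, and in this stage and in elongating spermatids the 2 libraries with the lowest Tssk6 were those whose deviations fell with GC content. In early round, later round and condensing spermatids the lowest Tssk6 used was in a library labelled LFD. The transcript of Tssk4 has 52.6% GC, above 71.7% of the expressed genes. The part of GC content in these values was not tested.

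The number of genes called depended on single libraries, HFD replicate 1 above all. Without it edgeR called 524 of 11110 genes in late spermatocytes, 1532 of 12486 in early round and 942 of 12949 in later round spermatids. It called 173 of 10354 in starting, 0 of 9398 in elongating and 3 of 4862 in condensing spermatids, and 2 of 21045 in the whole testis. Among all these calls were Tssk4 in early round (-0.23, edgeR adjusted p = 0.0419) and later round spermatids (-0.32, edgeR adjusted p = 0.0302). Tssk6 was called in spermatids starting elongation (-0.43, edgeR adjusted p = 0.0384). That comparison sets HFD replicates 2 and 3, the libraries with the GC trend, against the 3 libraries labelled LFD. Without LFD replicate 1 edgeR called 8 genes in elongating and 21 in condensing spermatids, without LFD replicate 2 it called 2 in elongating spermatids, and without HFD replicate 3 it called 1 in condensing spermatids, none of them a member. With a batch term for the replicate 1 libraries, no member was called in any stage.

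The diet difference of Tssk6 in elongating minus later round spermatids was -0.33 ± 0.10 on the log2 scale (unadjusted p = 0.00363, edgeR adjusted p = 1). Of the 13700 genes in this interaction test 0 were called (0%), and 407 had an unadjusted p under 0.05. Leaving out LFD replicate 2, LFD replicate 3 or HFD replicate 3 gave 8, 1 and 1 called genes, none of them a member. The other members' interaction values lay between -0.13 and 0.05.

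In the whole testis Tssk6 was at 645, 288 and 272 CPM in HFD replicates 1 to 3 and at 503, 368 and 293 CPM in LFD replicates 1 to 3, so the replicate 1 libraries were highest in both diets. These are also the libraries with the largest shares of elongating and condensing barcodes. Fewer cells of a stage and less RNA per cell cannot be told apart in these sums. Tssk3 showed the same order, with 282 and 269 CPM in the replicate 1 libraries and 156 to 189 in the others, while Tssk1 ranged from 306 to 453 CPM and was highest in LFD replicate 3.

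**Figure D5:**
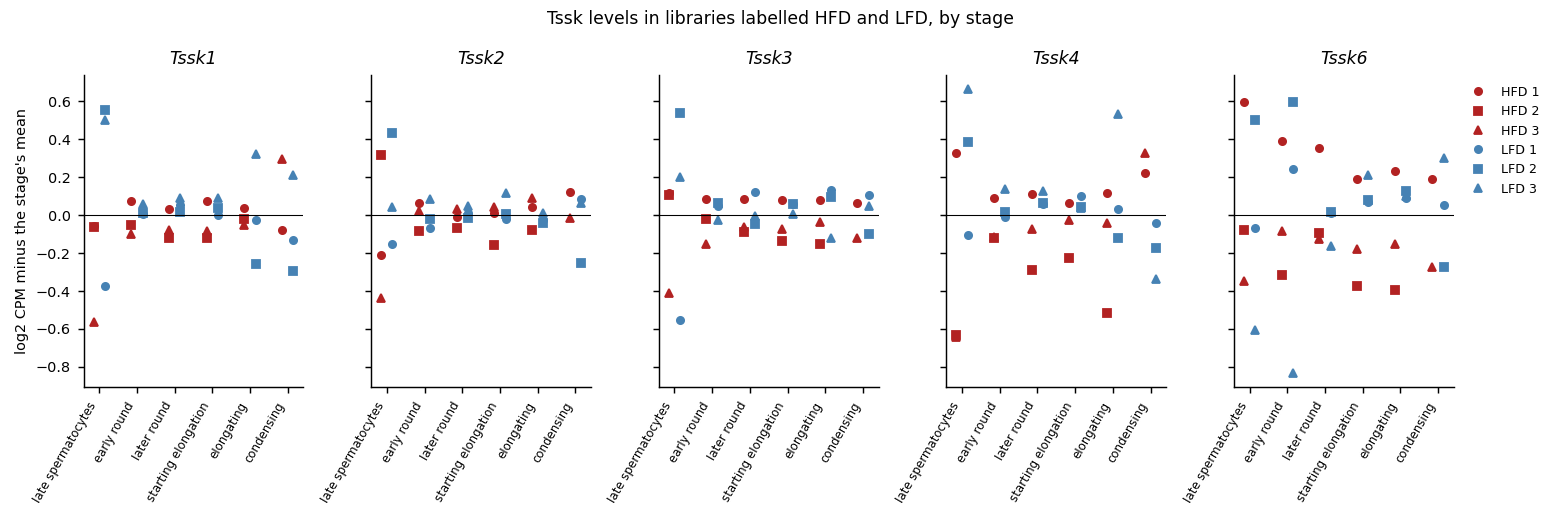
Log2 CPM of each member in each library minus the mean of its stage (red, labelled HFD; blue, labelled LFD; circle, square and triangle, replicates 1, 2 and 3). From early round spermatids on most points of Tssk1, Tssk2 and Tssk3 lie close to 0, and HFD replicate 2 is the lowest point of Tssk4 in later round, starting and elongating spermatids and of Tssk6 in the last 2 of these.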

How the data were processed

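Droplet libraries of whole testis were sequenced by the authors and counted with Cell Ranger 6.0.1 on the mm10 reference, and the deposited matrices hold UMI counts per gene and barcode. The labels and the study's methods name different versions of the 3′ kit, so the chemistry is uncertain. The deposited barcode and feature lists name the columns and rows of each matrix.

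Members and gene lists were chosen with earlier results of these data known, and gate thresholds after the marker distributions had been seen, without Tssk UMIs. Spermatocytes, round spermatids and spermatids starting elongation needed 10000 UMIs per barcode, later spermatids 3000 and somatic gates 1000. Counts were summed per library and stage, and a library needed 20 barcodes. edgeR 4.0.16 (R 4.3.3) fitted the sums by quasi-likelihood with TMM scaling, filterByExpr and Benjamini-Hochberg adjustment over all genes tested, at 0.05, with the library as a block between stages. Marker genes of the gates were left out of the counts of calls. Shares and UMIs per barcode were compared with exact sign-flip tests over libraries. No barcode was removed as a doublet; leaving out the 3356 with the highest Scrublet scores (scanpy 1.11.5), 252 of them in the 6 stages, was an alternative. The other alternatives were DESeq2 1.42.0, RLE factors, no filter, a stricter gate, a doubled UMI minimum, each library left out, a replicate block, a batch term for replicate 1 and, added after seeing the data, plain CPM scaling. The genes named are the members, Tssk5, the partners, the genomic neighbours, the kinases with the largest later changes and the 3 genes most like each member. The fitting code was tested on simulated data.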

Additional observations from a re-analysis of the deposited data

How the results depend on the processing

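Stage changes of the members kept their direction and call under nearly all alternatives. The exceptions were Tssk1 from spermatids starting elongation to elongating spermatids, which reversed to -0.61 under plain CPM scaling and was called at 0.14 with the stricter gate (edgeR adjusted p = 0.0132), Tssk4 from later round spermatids to those starting elongation, called at -0.41 under plain CPM and at -0.14 with no filter, and Tssk2 from elongating to condensing spermatids, not called without LFD replicate 2 (-0.08) or with no library block (-0.23, edgeR adjusted p = 0.169). No other alternative than leaving out HFD replicate 1 gave a diet call of a member. With no filter on low counts, edgeR called 20 genes by diet in late spermatocytes, 13 in early round, 17 in later round, 15 in elongating and 4 in condensing spermatids and 10 in the interaction, and the batch term for replicate 1 gave 1 in condensing spermatids. The cause of these differences was not tested.

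Leaving out 1 library at a time, the diet counts ranged from 0 to 524 in late spermatocytes, 0 to 1532 in early round, 0 to 942 in later round, 0 to 173 in starting, 0 to 8 in elongating and 0 to 21 in condensing spermatids, 0 to 2 in the whole testis and 0 to 8 in the interaction. The number of shares with 1 sign in every library stayed at 13 of 15, and with 5 libraries their exact p cannot go below 0.0625.

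With the replicate number as a block, edgeR called 2 genes by diet in early round, 18 in elongating and 5 in condensing spermatids and 24 in the whole testis. The labels give no pairing, and deviations of same-numbered libraries correlated between -0.24 and 0.49, not above 0.1 in every pair, so the numbers were not taken as pairs. The replicate 1 libraries deviated together in the whole testis (r = 0.49) and in elongating spermatids (r = 0.34).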

Other observations

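For each member, the 3 genes whose log2 CPM followed it most closely were taken from 5129 genes over 35 library-by-stage values, which share libraries and depth. They were BC049762, Erich3 and Akap3 for Tssk1 (Pearson's r from 0.9955 to 0.9898), 1700019D03Rik, 2610318N02Rik and 4933402J07Rik for Tssk2 (0.9971 to 0.9949), and Tmem53, Gsg1 and Csnk1g2 for Tssk3 (0.9964 to 0.9961). Fthl17a, Ttll9 and Mmel1 were most like Tssk4, and Gm614, Spem1 and Glul most like Tssk6. Among the members, r ranged from -0.195 for Tssk4 and Tssk6 to 0.9344 for Tssk3 and Tssk6, with 0.9117 for Tssk1 and Tssk4 and 0.6774 for Tssk1 and Tssk2.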
